A study of Homo sapiens with 15 samples.

Results

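ADGRL1, ADGRL2, ADGRL3 and ADGRL4 encode the latrophilin group of adhesion G protein-coupled receptors. These 4 genes were found by name among the 60675 genes of the count table, and all 4 had enough reads to be tested. The family was chosen by the read counts of ADGRL4, which differed between 6CD2m and 8CDm cells, so the ADGRL4 values are given as a description wherever libraries of either line enter. ADGRL4 was tested only between groups that hold neither line, and ADGRL1 to ADGRL3 were tested in every comparison.

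Latrophilins sit at the cell surface with a long extracellular region that is cut by autoproteolysis next to the membrane and stays attached to the membrane-spanning part. ADGRL1, ADGRL2 and ADGRL3 carry a lectin-like and an olfactomedin-like domain that bind teneurins and FLRT proteins on neighbouring cells, and they are best known from synapses, where ADGRL1 was found as a receptor for the black widow spider toxin α-latrotoxin. ADGRL4, also called ELTD1, lacks those domains, carries EGF-like repeats instead and is known mainly from endothelial cells and growing blood vessels.

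RNA was measured by sequencing of rRNA-depleted total RNA from HT1080 cells, a human fibrosarcoma line, in 15 libraries that form 5 groups of 3 biological replicates. Of the lines derived from HT1080, a pair carries an inactivating substitution in lysine deacetylase 6, 6CD1m (HDAC6H216A, first catalytic domain) and 6CD2m (HDAC6H611A, second catalytic domain), and 8CDm carries HDAC8H143A in lysine deacetylase 8. The mutant lines were treated for 2 days, 6CD1m and 6CD2m with 1 µM Tubastatin A, an inhibitor directed at deacetylase 6, and 8CDm with 5 µM PCI-34051, an inhibitor directed at deacetylase 8. WT HT1080 cells received either inhibitor at the same dose for 14 days. Every group was therefore treated, untreated cells were not analysed here, and line and length of treatment cannot be told apart when a mutant is set against WT. Whether each line is 1 clone is not given in the sources used here. Because the mutations are single substitutions, the summed reads of HDAC6 and HDAC8 do not check which line a library came from.

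Library totals ran from 10932437 to 19983699 counts on genes. Levels are given as CPM, read counts relative to the scaled library size, and between genes only as CPM per kilobase of exon. Fold changes and adjusted p values come from edgeR's quasi-likelihood test fitted to all 15 libraries and adjusted over the 19535 genes tested. A gene was said to rise or fall only at an adjusted p below 0.001, the rate used in the study. Libraries of 1 group differed in base composition. The median log2 ratio to the mean library of the 10th of genes lowest in GC, minus that of the 10th highest in GC, ran from -0.97 to 0.12 in 6CD1m, from -0.83 to -0.030 in WT with PCI-34051, from -0.18 to 0.51 in WT with Tubastatin A, from 0.25 to 0.48 in 6CD2m and from 0.35 to 0.47 in 8CDm. ADGRL4 (GC 34.4%), ADGRL3 (37.7%) and ADGRL2 (40.9%) lie on the low side of this measure and ADGRL1 (61.4%) on the high side, so values with an offset for GC are given beside the results it moves.

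The genes lie on 3 chromosomes of GRCh38. ADGRL4 (ENSG00000162618) occupies chr1:78889764-79006718 on the minus strand and ADGRL2 (ENSG00000117114) chr1:81306160-81992436 on the plus strand, 2299 kb apart. ADGRL3 (ENSG00000150471) occupies chr4:61201258-62078335 on the plus strand and ADGRL1 (ENSG00000072071) chr19:14147743-14206187 on the minus strand. ADGRL4 overlaps no other annotated gene. Exons of ADGRL1 overlap AC022098.1, and its estimated counts were not all whole numbers, so its reads may be shared. ADGRL3 exons overlap ADGRL3-AS1, which had 0 counts in every library.

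RefSeq promoter windows for GRCh38.p14, 250 bases before to 50 bases after a transcription start, matched ADGRL2, ADGRL3 and ADGRL4 by symbol. The window of ADGRL4 is shown because its RNA was at the detection floor in one line, and both windows of ADGRL3 are shown because it was the member that passed the test between groups. They are printed 5′ to 3′ along the gene's strand, with every CpG in capitals.
ADGRL4, chr1:79006681-79006980, minus strand: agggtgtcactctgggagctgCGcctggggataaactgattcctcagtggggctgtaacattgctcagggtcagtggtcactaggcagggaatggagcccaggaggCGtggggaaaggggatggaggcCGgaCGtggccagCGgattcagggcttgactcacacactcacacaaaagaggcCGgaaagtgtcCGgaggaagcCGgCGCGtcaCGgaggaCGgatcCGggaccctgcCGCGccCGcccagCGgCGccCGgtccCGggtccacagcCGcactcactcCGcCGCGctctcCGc
ADGRL3, chr4:61200076-61200375, plus strand: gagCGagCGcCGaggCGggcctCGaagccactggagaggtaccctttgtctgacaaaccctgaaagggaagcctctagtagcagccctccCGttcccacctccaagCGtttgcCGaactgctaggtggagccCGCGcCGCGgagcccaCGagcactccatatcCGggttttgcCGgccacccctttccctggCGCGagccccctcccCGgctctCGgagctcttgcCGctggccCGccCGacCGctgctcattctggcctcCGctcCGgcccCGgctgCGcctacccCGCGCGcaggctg
ADGRL3, chr4:61201922-61202221, plus strand: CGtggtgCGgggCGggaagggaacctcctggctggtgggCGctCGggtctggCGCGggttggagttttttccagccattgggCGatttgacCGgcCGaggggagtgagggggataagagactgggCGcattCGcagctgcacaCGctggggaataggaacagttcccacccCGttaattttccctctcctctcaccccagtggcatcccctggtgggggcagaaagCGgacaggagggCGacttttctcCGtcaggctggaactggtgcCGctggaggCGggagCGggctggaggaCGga
The ADGRL4 window held 25 CpG at 66.7% GC, against a median of 14 CpG over all 35116 windows, and 68.0% of those windows had fewer. The ADGRL3 windows held 30 and 21 CpG, and the 8 windows of ADGRL2 held from 4 to 34. Of the motifs searched on both strands, GGGCGG occurred in the ADGRL4 window and in both ADGRL3 windows, and in 45.0% of all windows. CCGGAA occurred in the ADGRL4 window and in 17.2% of all windows. TATAAA (11.5% of all windows), CACGTG (7.26%) and TGACGTCA (1.85%) were in none of these 3 windows.

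ADGRL4 was detected well above the floor in every group except 8CDm. In WT cells treated with Tubastatin A it measured 60.9, 43.0 and 37.3 CPM, and in 6CD2m cells 38.8, 49.5 and 43.9 CPM. In WT cells treated with PCI-34051 it measured 34.8, 18.0 and 20.3 CPM, and in 6CD1m cells 11.5, 23.7 and 34.7 CPM. These libraries held from 137 to 1101 reads of the gene each. The 3 8CDm libraries held 1, 0 and 0 reads of it, a pooled count of 1 (exact Poisson 95% interval 0.0253 to 5.57), which allows at most 0.102 CPM. Pooled over libraries, the ratio to 8CDm was 1367 for WT with PCI-34051 (exact 95% interval 245 to 54021), the group that shares the inhibitor. For 6CD2m it was 2423, on the contrast by which the gene was chosen. Both ratios use the 8CDm values behind that choice and are a description. The interval covers counting error only, not the spread between libraries, and is wide because the ratio rests on 1 read. The reads are from bulk RNA, so fewer expressing cells and less RNA per cell cannot be told apart. By group mean the order was WT with Tubastatin A (47.1 ± 12.3 CPM, SD, n = 3), 6CD2m (44.1 ± 5.33), WT with PCI-34051 (24.4 ± 9.12), 6CD1m (23.3 ± 11.6) and 8CDm. WT with Tubastatin A and 6CD2m overlapped in range, as did WT with PCI-34051 and 6CD1m. The ranges of 6CD2m and WT with PCI-34051 did not overlap as measured, but did after adjustment for GC, at 32.5 to 43.4 CPM and 24.3 to 37.4 CPM.

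**Figure D1:**
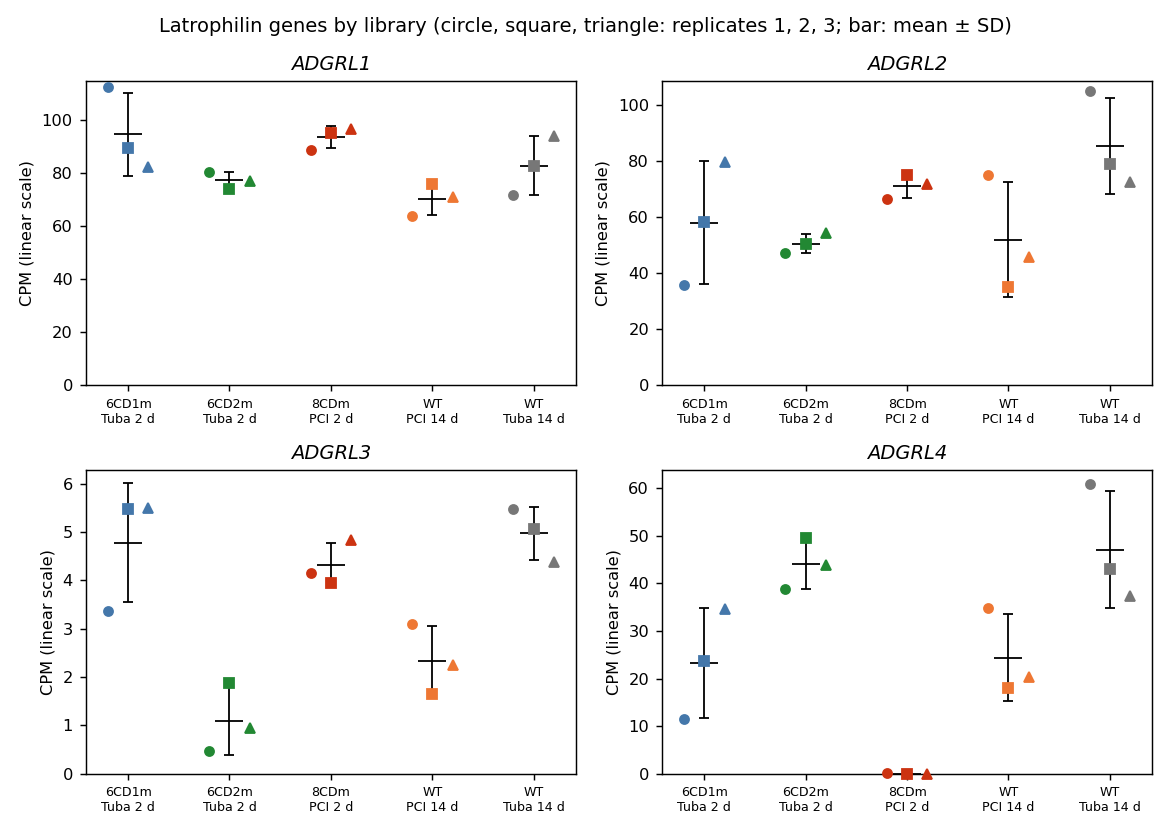
Level of each latrophilin gene in each library, in CPM on a linear axis that starts at 0, by group (line, inhibitor and days of treatment). Symbols mark replicates 1, 2 and 3 and bars the mean ± SD (n = 3). ADGRL4 lies at 0 in 8CDm and between 11.5 and 60.9 CPM elsewhere, and ADGRL3 is lowest in 6CD2m. For ADGRL1 and ADGRL2, groups next to each other by mean overlap, while some groups further apart do not.

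As a description resting on the 8CDm values that chose the gene, 3 of all genes had no more than 3 reads in any 8CDm library and a mean of at least 10 CPM in each other group, limits set after the values were seen. The other 2, TTTY15 and UTY, were named after their values were seen, and both lie on the Y chromosome.

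The tests of ADGRL4 that the choice of the gene leaves free compared 6CD1m with WT on the same inhibitor, and the inhibitors with each other in WT. In 6CD1m cells the 3 libraries lay below the 3 WT libraries on Tubastatin A, a log2 fold change of -1.01 (SE 0.32, 95% interval -1.68 to -0.33), but the difference did not pass the test (adjusted p = 0.0574, edgeR). Adjusting for GC gave -0.85 (adjusted p = 0.0225, edgeR with GC offsets). The lowest library, 6CD1m replicate 1 at 11.5 CPM, also had the lowest base composition measure of all 15 (-0.97). Without it the change was -0.69, and over all libraries left out in turn it ran from -1.43 to -0.69. Between the inhibitors in WT cells, ADGRL4 was 1.93-fold higher with Tubastatin A (log2 fold change 0.95, SE 0.31, 95% interval 0.28 to 1.61, adjusted p = 0.0688, edgeR), again without overlap of the libraries and without passing the test. Same-numbered WT libraries deviated together, but the main fit does not pair them. An alternative fit of these 6 libraries with the replicate as a block gave 0.94 with an adjusted p of 2.7e-05 (edgeR). The block in a fit of all 15 libraries gave an adjusted p of 0.116 (edgeR). With GC offsets the change was 0.63 (adjusted p = 0.0882, edgeR).

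ADGRL3, a latrophilin that binds FLRT3 and teneurins, had the lowest level per kilobase of the members in every group but 8CDm, and was the only one that passed the test. It measured 0.474, 1.87 and 0.946 CPM in 6CD2m cells, which is 8, 37 and 17 reads. In 6CD1m cells it measured 3.37, 5.47 and 5.51 CPM (40, 78 and 79 reads), and in WT cells with Tubastatin A 5.47, 5.06 and 4.39 CPM (99, 78 and 76 reads). Every 6CD2m library lay below every library of both other Tubastatin A groups. ADGRL3 fell in 6CD2m 4.44-fold against WT (log2 fold change -2.15, SE 0.36, 95% interval -2.93 to -1.37, adjusted p = 0.000327, edgeR) and 4.29-fold against 6CD1m (-2.10, SE 0.37, 95% interval -2.88 to -1.31, adjusted p = 0.000421, edgeR). Both comparisons use the same 3 6CD2m libraries. The result stands close to the threshold: leaving out single libraries gave adjusted p values up to 0.00325 against WT and 0.00382 against 6CD1m, and the fit with a replicate block gave 0.00118 and 0.00148 (edgeR). With GC offsets the changes were -2.29 (adjusted p = 4.8e-05, edgeR) and -2.40 (adjusted p = 3.8e-05, edgeR).

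In the PCI-34051 groups, ADGRL3 measured 4.16, 3.95 and 4.83 CPM in 8CDm cells and 3.09, 1.64 and 2.25 CPM in WT cells. The 8CDm libraries were all above the WT libraries, with a log2 fold change of 0.88 (SE 0.34, 95% interval 0.15 to 1.61) that did not pass the test (adjusted p = 0.0567, edgeR). With GC offsets it was 0.54 (adjusted p = 0.200, edgeR). In WT cells the libraries with Tubastatin A were all above those with PCI-34051 (log2 fold change 1.08, SE 0.34, 95% interval 0.36 to 1.81, adjusted p = 0.0579, edgeR). With GC offsets these WT groups lay closer, at 4.83 ± 0.214 against 2.69 ± 0.559 CPM. Between 6CD1m and WT the difference was -0.051 (SE 0.33, 95% interval -0.75 to 0.65, adjusted p = 0.927, edgeR), and its sign changed with GC offsets (0.11) or upper-quartile scaling (0.059). The group means were in the order WT with Tubastatin A (4.97 ± 0.546 CPM, n = 3), 6CD1m (4.78 ± 1.23), 8CDm (4.31 ± 0.459), WT with PCI-34051 (2.33 ± 0.728) and 6CD2m (1.10 ± 0.713). Of the neighbours in this order, only 8CDm and WT with PCI-34051 did not overlap.

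ADGRL2, whose product is a broadly expressed teneurin and FLRT receptor, did not pass the test in any of the 5 comparisons. It measured 47.1, 50.3 and 54.1 CPM in 6CD2m cells and 105, 78.8 and 72.4 CPM in WT cells with Tubastatin A. The 6CD2m libraries were all lower, by -0.76 on the log2 scale (SE 0.26, 95% interval -1.32 to -0.19, adjusted p = 0.0386, edgeR). Fitting only the 6 libraries compared brought the adjusted p to 0.00066 (log2 fold change -0.74, edgeR), past the threshold, and GC offsets gave -0.85 (adjusted p = 0.00385, edgeR). In 6CD1m cells it measured 35.8, 58.1 and 79.7 CPM, a spread of more than the difference from WT (-0.56, SE 0.26, 95% interval -1.12 to 0.0055, adjusted p = 0.159, edgeR). In 8CDm cells the values were 66.2, 75.0 and 71.8 CPM, and in WT cells with PCI-34051 74.8, 35.0 and 45.7 CPM. The 8CDm values lay inside the WT range except for 1 library marginally above it (0.45, SE 0.26, 95% interval -0.11 to 1.01, adjusted p = 0.196, edgeR). Between the inhibitors in WT the log2 fold change was 0.72 (SE 0.26, 95% interval 0.15 to 1.28, adjusted p = 0.0929, edgeR), and the replicate block within these 6 libraries gave 0.73 with an adjusted p of 0.00018 (edgeR), while the block over all 15 libraries gave 0.137. With GC offsets the WT means were 82.4 ± 13.0 CPM with Tubastatin A and 56.7 ± 17.4 with PCI-34051, from 85.3 ± 17.1 and 51.8 ± 20.6 before. The 8CDm mean was then 68.5 ± 6.03 CPM, from 71.0 ± 4.49, so both differences from WT with PCI-34051 were smaller. All neighbours in the order of group means overlapped as measured.

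ADGRL1, the receptor of α-latrotoxin, also did not pass the test in any comparison. It measured 112, 89.4 and 82.2 CPM in 6CD1m, 80.5, 74.1 and 77.0 CPM in 6CD2m, and 71.8, 82.7 and 94.0 CPM in WT with Tubastatin A. In 8CDm it measured 88.8, 95.1 and 96.8 CPM and in WT with PCI-34051 63.7, 75.7 and 71.1 CPM. The highest and lowest group means, 94.6 ± 15.7 and 70.2 ± 6.05 CPM (n = 3), belonged to 6CD1m and WT with PCI-34051, and all neighbours in the order overlapped. The 3 8CDm libraries were above the 3 WT libraries with PCI-34051, by 0.42 on the log2 scale (SE 0.12, 95% interval 0.16 to 0.67, adjusted p = 0.0150, edgeR). With GC offsets the difference was 0.76 with an adjusted p of 4.5e-06 (edgeR), and ADGRL1 then passed the test, with levels of 102, 107 and 108 CPM against 69.2, 59.8 and 58.6 CPM. Against 6CD1m, the 6CD2m libraries were all lower (-0.29, SE 0.12, 95% interval -0.55 to -0.034, adjusted p = 0.0667, edgeR), a difference of -0.054 with GC offsets. The remaining differences were 0.19 for 6CD1m against WT (95% interval -0.068 to 0.45), -0.10 for 6CD2m against WT (-0.36 to 0.16) and 0.24 between the inhibitors (-0.020 to 0.50), and the first turned to -0.068 with GC offsets. The last widened with GC offsets, to levels of 88.8, 84.4 and 89.9 CPM with Tubastatin A against 69.2, 59.8 and 58.6 CPM with PCI-34051. These ranges no longer overlapped, but the difference between the inhibitors passed the test in none of 16 alternative settings.

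**Figure D2:**
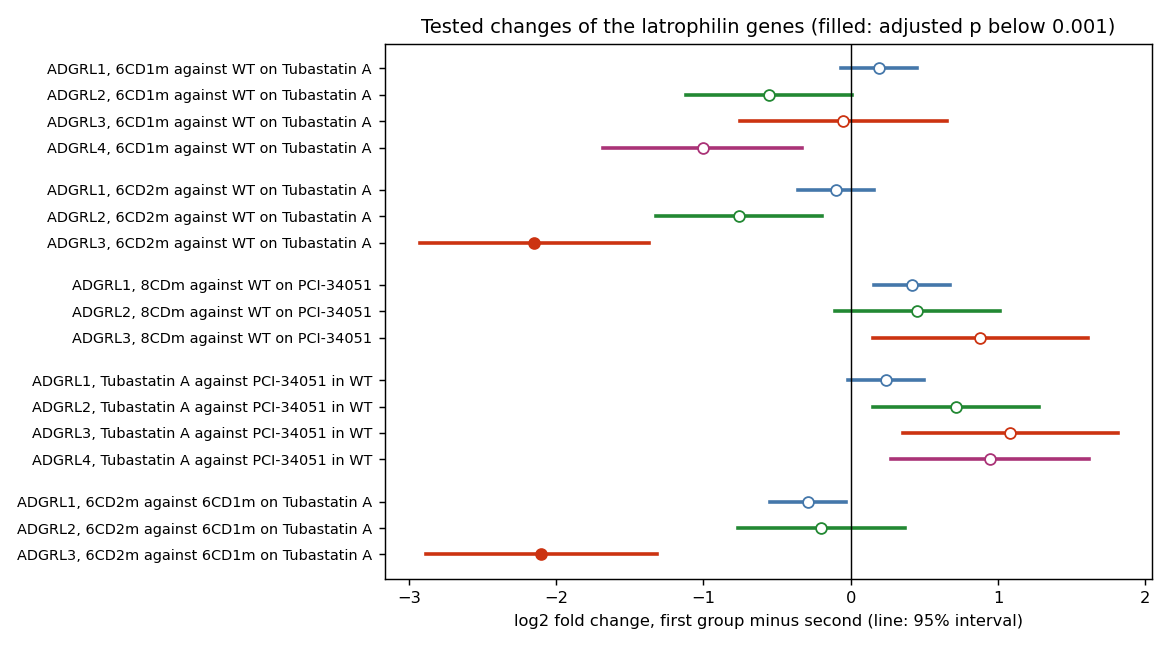
Log2 fold change of each latrophilin gene in each comparison, first group minus second, with its 95% interval from edgeR. Filled points have an adjusted p below 0.001, which only ADGRL3 reached, at -2.15 and -2.10 in the comparisons with 6CD2m. ADGRL4 appears only where it was tested.

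Counted over the members, 0 of 4 passed the test in 6CD1m against WT, where 0.793% of all genes tested passed. In 6CD2m against WT it was 1 of 3 tested members (background 11.8%), in 8CDm against WT 0 of 3 (11.0%), between the inhibitors in WT 0 of 4 (0.420%), and in 6CD2m against 6CD1m 1 of 3 (13.2%). At an unadjusted p below 0.05, edgeR gave 1 of 4, 2 of 3, 2 of 3, 3 of 4 and 2 of 3 members in the same order, and DESeq2 at the adjusted threshold gave 0, 1, 0, 0 and 1. The share of all genes at that unadjusted p was not taken, and the share called by DESeq2 is not given here. Counts of either kind, here and for the lists below, therefore have no background. Of the tested members, group ranges did not overlap for 1 of 4 in 6CD1m against WT (31.0% of all genes), 2 of 3 in 6CD2m against WT (50.0%), 2 of 3 in 8CDm against WT (48.1%), 2 of 4 between the inhibitors (25.9%) and 2 of 3 in 6CD2m against 6CD1m (51.7%). The comparisons of 6CD1m and of 6CD2m with WT share the WT libraries.

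The makeup of the family in each group is given as a description and was not tested. In 8CDm and 6CD2m it rests in part on the ADGRL4 values that chose the gene. Per kilobase of exon, ADGRL4 reached 12.8 CPM in WT with Tubastatin A and 12.0 in 6CD2m, 6.63 in WT with PCI-34051, 6.34 in 6CD1m and 0.00516 in 8CDm. Over groups ADGRL1 ran from 8.27 to 11.1 CPM per kilobase, ADGRL2 from 6.51 to 11.0 and ADGRL3 from 0.0785 to 0.356. Of the summed latrophilin level per kilobase, ADGRL4 supplied 43.2 ± 3.22% in 6CD2m and 37.3 ± 4.87% in WT with Tubastatin A, 29.8 ± 4.75% in WT with PCI-34051, 24.1 ± 8.60% in 6CD1m and 0.0267 ± 0.0463% in 8CDm (SD, n = 3). ADGRL1 supplied 53.8 ± 0.745% in 8CDm and ADGRL2 the greater part of the rest, 44.7 ± 0.916%. Shares add up to the whole, so theirs are larger where ADGRL4 is absent. ADGRL1 supplied 45.7 ± 15.2% in 6CD1m, 39.4 ± 10.4% in WT with PCI-34051, 33.0 ± 3.03% in 6CD2m and 29.4 ± 7.13% in WT with Tubastatin A. ADGRL3 supplied at most 1.51% by group mean and 1.64% in any library. Among 32 adhesion receptor genes ranked by mean CPM per kilobase, ADGRL4 stood 2nd in WT with Tubastatin A and in 6CD2m, 5th in WT with PCI-34051, 6th in 6CD1m and 26th in 8CDm. CELSR1, a planar cell polarity cadherin, stood first in every group, at 14.3 to 20.2 CPM per kilobase.

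Within most groups the members' levels moved with base composition. The 3 libraries of a group were in the same order for ADGRL2 as for the excess of AT-rich over GC-rich genes in 4 of 5 groups, and for ADGRL3 and for ADGRL4 in 3 of 5. For ADGRL1 the order was exactly opposite in 4 of 5. Part of the spread of ADGRL1 shrank with the GC offsets, for example from an SD of 15.7 to 3.70 CPM in 6CD1m, while ADGRL2 in 6CD1m kept an SD of 16.7 CPM against 22.0 before. In 8CDm, with 1 read of ADGRL4 in all, this measure was 0.35 to 0.47.

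**Figure D3:**
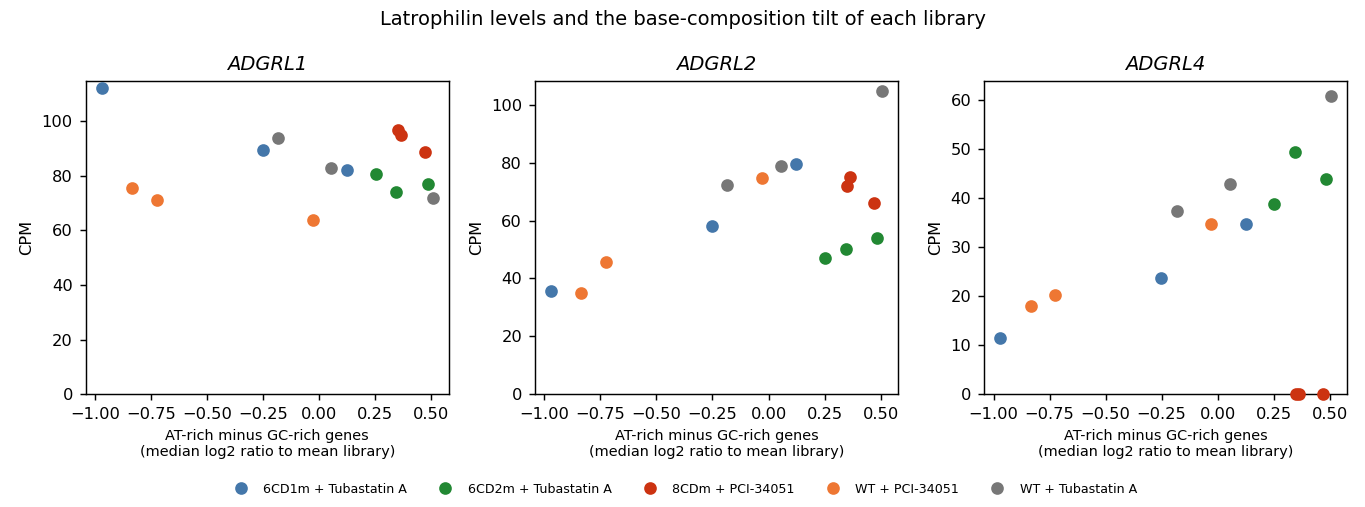
CPM of ADGRL1, ADGRL2 and ADGRL4 in each library against the library's base composition, measured as the median log2 ratio of AT-rich minus GC-rich genes, with 1 point for each of the 15 libraries and colours for groups. Within a group ADGRL2 and ADGRL4 tend to lie higher, and ADGRL1 lower, toward the right, and the 3 8CDm points of ADGRL4 lie at 0 near 0.35 to 0.47.

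The extracellular ligands of the latrophilins were measured from a list of 10 teneurin, FLRT and neurexin genes, 9 of which were tested. TENM1, an X-linked teneurin, measured 43.4, 39.8 and 42.2 CPM in 6CD2m cells and 4.42, 5.19 and 4.51 CPM in WT cells with Tubastatin A, with 2.69, 1.05 and 0.906 CPM in 6CD1m. The 6CD2m libraries stood far above both groups. TENM1 rose in 6CD2m by 3.15 on the log2 scale against WT (SE 0.25, adjusted p = 2.8e-07, edgeR) and by 4.79 against 6CD1m (SE 0.30, adjusted p = 1.8e-08, edgeR). In 8CDm it measured 1.08, 0.488 and 0.698 CPM against 4.32, 3.41 and 2.90 CPM in WT with PCI-34051, a log2 fold change of -2.23 (SE 0.33, adjusted p = 0.00013, edgeR).

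TENM2, a teneurin also called Lasso and known as a ligand of ADGRL1, measured 428, 473 and 479 CPM in 8CDm cells and 101, 67.5 and 57.3 CPM in WT cells with PCI-34051. It rose in 8CDm by 2.61 (SE 0.20, adjusted p = 1.7e-07, edgeR), with every library above every WT library. In 6CD2m it measured 272, 349 and 314 CPM and rose by 1.27 against 6CD1m, at 98.5, 138 and 151 CPM (SE 0.19, adjusted p = 0.00011, edgeR). TENM4 fell in 6CD2m against 6CD1m, from 117 ± 13.3 to 75.6 ± 3.79 CPM (-0.64, SE 0.10, adjusted p = 0.00019, edgeR). TENM3 lay between 123 and 161 CPM by group mean and did not pass the test in any comparison.

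FLRT2, a leucine-rich repeat ligand of latrophilins and of UNC5 receptors, fell in 6CD2m from 11.8 ± 2.46 CPM in WT to 5.27 ± 0.595 CPM (-1.16, SE 0.20, adjusted p = 0.00033, edgeR). The other FLRT genes, FLRT1 and FLRT3, had group means at or below 5.85 CPM, with single libraries up to 9.51 CPM, and the neurexin NRXN2 below 1 CPM. Of the 9 ligands tested, 1 rose and 1 fell in 6CD2m against WT (11.8% of all genes passed), 1 rose and 1 fell in 8CDm against WT (11.0%), and 2 rose and 1 fell in 6CD2m against 6CD1m (13.2%). Of the 16 alternative settings, the call of TENM4 was lost in 9 (adjusted p up to 0.0205), that of FLRT2 in 6 (up to 0.00349) and that of TENM2 in 6CD2m against 6CD1m in 1, and of 15 for TENM1 in 8CDm it was lost in 4 (up to 0.00631), with no change of sign. None passed the test in 6CD1m against WT (0.793% of all genes) or between the inhibitors (0.420%) (edgeR). There 4 and 6 had an unadjusted p below 0.05 and DESeq2 called 1 and 1. The median log2 fold change of the ligands was 0.28 in 8CDm against WT and -0.27 in 6CD2m against WT, beside -0.041 and -0.011 over all genes tested. The summed level of the 10 ligands was 683 to 751 CPM in 8CDm, 532 to 618 in 6CD2m, 420 to 504 in WT with Tubastatin A, 315 to 440 in 6CD1m and 266 to 365 in WT with PCI-34051.

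**Figure D4:**
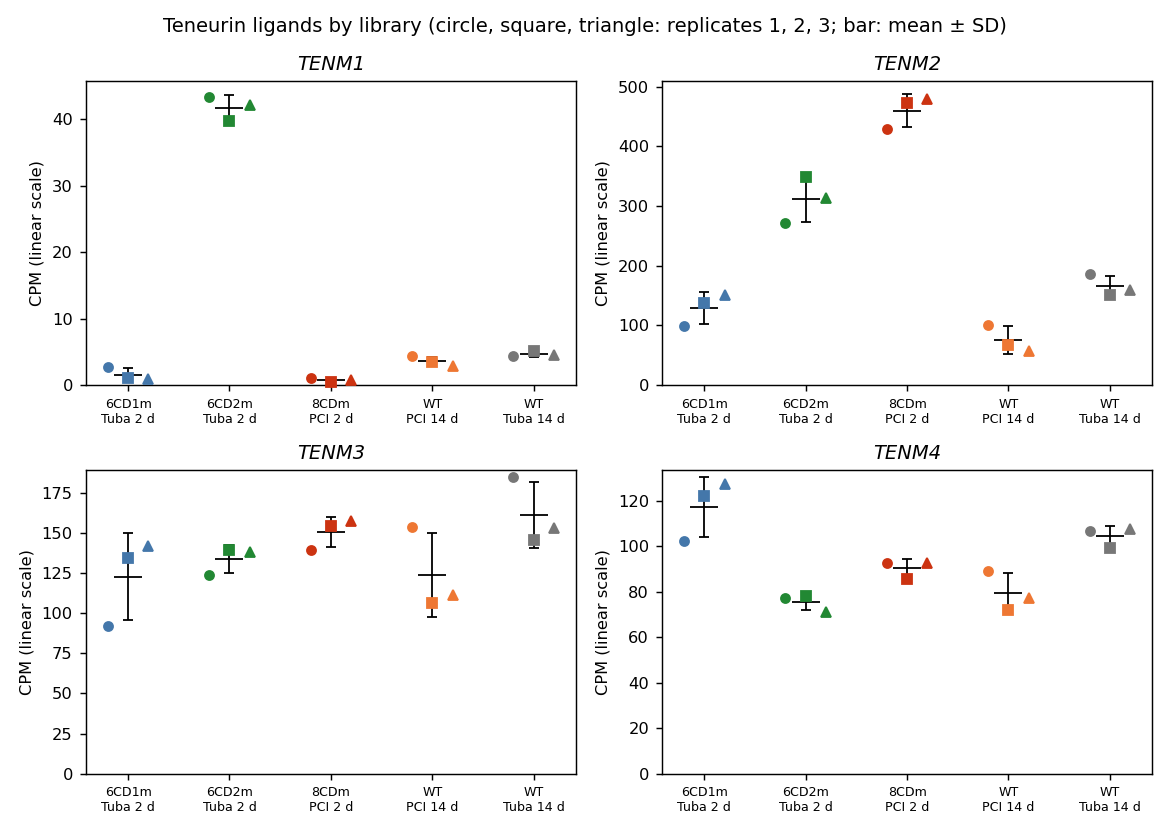
Level of the 4 teneurin ligands in each library, in CPM on a linear axis that starts at 0, by group. Symbols mark replicates 1, 2 and 3 and bars the mean ± SD (n = 3). TENM1 lies at 39.8 to 43.4 CPM in 6CD2m and below 6 CPM elsewhere, and TENM2 is highest in 8CDm at 428 to 479 CPM. TENM3 overlaps between some groups, but WT with Tubastatin A (146 to 185 CPM) lies above 6CD2m (124 to 139) and 6CD1m (91.7 to 142).

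UNC5 co-receptors, which form complexes with FLRT proteins and latrophilins, and SHANK scaffolds, which hold latrophilins at the synapse, made a list of 7 genes with 6 tested. UNC5B measured 35.2, 35.6 and 33.3 CPM in 6CD2m, 10.3, 10.8 and 11.6 CPM in WT with Tubastatin A and 6.65, 5.69 and 7.53 CPM in 6CD1m. It rose by 1.67 against WT (SE 0.11, adjusted p = 4.6e-08, edgeR) and by 2.39 against 6CD1m (SE 0.12, adjusted p = 3.2e-09, edgeR). SHANK2 rose in 8CDm, from 0.838 ± 0.284 to 11.2 ± 0.943 CPM (3.75, SE 0.29, adjusted p = 2.1e-07, edgeR). It also rose in 6CD2m, at 5.61 ± 0.763 CPM, against WT (2.62, SE 0.29, adjusted p = 5.6e-06, edgeR) and against 6CD1m (1.48, SE 0.27, adjusted p = 0.00055, edgeR). The last of these calls was lost in 9 of 16 alternative settings (adjusted p up to 0.0052), and the calls named before it in none. SHANK1 lay between 32.3 and 52.7 CPM by group mean and did not pass the test. Of the 6 tested, 2 rose in 6CD2m against WT (11.8% of all genes passed), 1 in 8CDm against WT (11.0%) and 2 in 6CD2m against 6CD1m (13.2%), and 0 fell. In 6CD1m against WT (0.793% of all genes) and between the inhibitors (0.420%) no gene of the list passed (edgeR). In these comparisons 3 and 2 had an unadjusted p below 0.05 and DESeq2 called 1 and 1.

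Downstream, latrophilins couple to G proteins, and G12 and G13 act through guanine nucleotide exchange factors on small GTPases. All 13 genes of this list were tested. GNA12 measured 71.7, 77.8 and 70.3 CPM in 6CD2m and 140, 140 and 147 CPM in WT with Tubastatin A, a log2 fold change of -0.96 (SE 0.09, adjusted p = 7.7e-07, edgeR). It also fell in 8CDm against WT, to 84.7 ± 4.54 from 149 ± 7.51 CPM (-0.82, SE 0.09, adjusted p = 4.5e-06, edgeR), and in 6CD2m against 6CD1m (-0.68, SE 0.09, adjusted p = 2.2e-05, edgeR). GNA11, a Gq family subunit, fell in 8CDm from 98.8 ± 4.11 to 56.6 ± 4.47 CPM (-0.80, SE 0.10, adjusted p = 2.2e-05, edgeR). GNAS, which encodes the stimulatory subunit, fell in 6CD2m against WT from 515 ± 12.2 to 366 ± 10.1 CPM (-0.49, SE 0.09, adjusted p = 0.00041, edgeR). The call of GNAS was lost in 11 of 16 alternative settings, among them every library left out (adjusted p from 0.00218 to 0.00554), that of GNA11 in 3, and those of GNA12 in 8CDm and against 6CD1m in 3 each. In the comparisons of 6CD2m with WT, of 8CDm with WT and of 6CD2m with 6CD1m, 2, 2 and 1 of the 13 fell. Over all genes tested, 11.8%, 11.0% and 13.2% passed in these comparisons, so the counts lie near the background. No gene of the list rose in any comparison, and the exchange factors ARHGEF1, ARHGEF11 and ARHGEF12 and the small GTPase RHOA did not pass. The list had no call in 6CD1m against WT (0.793% of all genes) or between the inhibitors (0.420%) (edgeR). There 5 and 5 genes had an unadjusted p below 0.05 and DESeq2 called 0 and 0.

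The near-zero level of ADGRL4 in 8CDm was set against its neighbours on chromosome 1. On the lower side the nearest tested protein-coding genes were IFI44 at 226 kb, PTGFR at 350 kb and DNAJB4 at 872 kb, and on the higher side ADGRL2 at 2299 kb, TTLL7 at 4858 kb and PRKACB at 5071 kb. None passed the test in 8CDm against WT. PTGFR, a prostaglandin receptor, measured 3.10 ± 0.443 against 3.87 ± 1.50 CPM, IFI44 0.799 ± 0.301 against 1.31 ± 0.438 CPM, and DNAJB4 6.26 ± 0.839 against 7.02 ± 0.793 CPM (n = 3). All 6 therefore kept reads in 8CDm. Within 10 Mb on each side, 56 protein-coding genes were tested, of which 8 rose and 3 fell in 8CDm against WT (11.0% of all genes passed), with a median log2 fold change of 0.48, beside 0.062 over 1397 protein-coding genes of the chromosome. The median of these 56 also moved in groups that kept ADGRL4. It was 0.36 between the inhibitors in WT (chromosome 0.12) and -0.34 in 6CD1m against WT (-0.11). In 6CD2m it was -0.060 against WT (-0.18) and 0.21 against 6CD1m (-0.081). These medians carry no GC offset, and the cause of the shifts was not tested. TTLL7, a tubulin polyglutamylase, was the only one of these neighbours that passed in another comparison. It rose with Tubastatin A against PCI-34051 in WT, 9.30 ± 0.424 against 3.49 ± 0.303 CPM (1.41, SE 0.17, adjusted p = 0.00031, edgeR). RPF1, 2487 kb from ADGRL2, rose in 8CDm (1.25, SE 0.22, adjusted p = 0.00049, edgeR). The calls of TTLL7 and RPF1 were each lost in 8 of 16 alternative settings (adjusted p up to 0.0188 and 0.00677).

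Genes with the pattern most like each member were named by Pearson's r of log2 CPM over the 15 libraries, among 13943 protein-coding genes outside the Y chromosome. The 15 points share group and base composition, so r is a description. For ADGRL4 they were SLC43A3 (0.990), PLAT (0.990), FAM120B (0.989), GALNT11 (0.987) and THBS2 (0.984), a ranking that rests on the same 8CDm values. With the Y chromosome kept in, 5 of its genes would have stood above the last of these. For ADGRL3 they were SEMA5A (0.953), FST (0.949), CCDC80 (0.931), PEAK1 (0.930) and APBB1 (0.917). For ADGRL2 they were DNAJC13 (0.980), GALNT1 (0.979), SEPTIN10 (0.975) and FAT1 (0.970), and for ADGRL1 LINGO1 (0.889), RREB1 (0.880), FAM153B (0.868), ATP2A3 (0.866) and OGDHL (0.857).

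The labelled cell type was set against markers. Summed mesenchymal markers ran from 5128 to 9427 CPM, summed epithelial markers from 4.48 to 17.2 CPM and summed blood cell markers from 0.160 to 1.89 CPM. Since ADGRL4 is known from endothelium, 15 endothelial markers were summed too. They ran from 199 to 398 CPM, but TIE1, ROBO4 and EGFL7 supplied most of this, PECAM1 stayed below 0.6 CPM in every library, and ERG and SOX17 were at 0 in all of them. In 8CDm, where ADGRL4 was at the floor, the sum was 239 to 273 CPM, against 199 to 205 CPM in WT with PCI-34051. Over the 10 markers tested, 2 rose in 8CDm (background 11.0%) and 0 fell, with a median log2 fold change of 0.12. TIE1 rose, from 136 ± 5.92 to 196 ± 15.3 CPM (0.53, SE 0.10, adjusted p = 0.00061, edgeR), a call lost in 10 of 16 alternatives (adjusted p up to 0.0166), and CDH5 had 2.62, 2.11 and 2.85 CPM in 8CDm and no reads in WT. ESAM, at 2.09 ± 0.406 against 3.93 ± 1.81 CPM, and CLDN5, at 0.239 ± 0.0399 against 0.987 ± 0.417 CPM, were lower in 8CDm by mean and did not pass (edgeR). In 6CD2m against WT, 2 of the 10 markers rose (background 11.8%) and 0 fell, with a median log2 fold change of 0.64. TIE1 reached 292 ± 23.9 CPM (1.03, SE 0.10, adjusted p = 1.1e-06, edgeR). CDH5 had 1.54 ± 0.136 CPM against 0.178 ± 0.0149 CPM, or 3 reads in each WT library (3.07, adjusted p = 5.0e-05, edgeR). ESAM was lower by mean, 1.87 ± 0.620 against 2.72 ± 1.08 CPM, and did not pass.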

How the data were processed

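The authors deposited raw expected counts of 60675 genes, that is, read numbers estimated by a model and left unnormalized. The submitters' processing notes name GRCh38, Trimmomatic 0.39, Bowtie2 2.4.5, RSEM 1.3.3 and DESeq2 1.38.2. The annotation release is not given in the sources used here. Counts were rounded (21.8% of nonzero values were not whole). Genes were filtered with filterByExpr, scaled by TMM and tested with the quasi-likelihood test of edgeR 4.0.16 in R 4.3.3, with a mean for each of 5 groups, Benjamini-Hochberg adjustment over 19535 genes and a false discovery rate of 0.001. Standard errors were derived from the quasi-likelihood F. The script was tested on simulated data. Gene positions, exon lengths and GC content came from GENCODE on GRCh38, matched for 57055 genes by identifier. CPM uses TMM library sizes, and the group ranges are those of single libraries.

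Groups and replicate numbers came from the labels. Deviations of same-numbered libraries correlated at 0.505, 0.235 and 0.169 between the WT groups. The numbers were taken as pairs there only in the alternative fits with a replicate block. The main fit is unpaired, and so are its calls between the inhibitors and the 0.420% of all genes beside them. In the other comparisons at least 1 pair was below 0.1. Alternatives were DESeq2 1.42.0, upper-quartile scaling, other filters, only the 6 libraries compared, a replicate block, GC offsets per library, a false discovery rate of 0.05 and leaving out each library. Floors were set at 3 counts per library.

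The members and lists were chosen with earlier results of these data known. The text names the 4 members in every comparison, up to 6 genes of each list past the threshold by size of change and the most abundant, the 3 nearest tested protein-coding genes on each side of ADGRL4 and ADGRL2, and the 5 genes most alike each member. Values of some of these genes are not reported here. Protein sequences were not used here.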

Additional observations from a re-analysis of the deposited data

Results flagged for a closer look

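The difference of ADGRL3 between 6CD2m and 6CD1m cells, both mutants of deacetylase 6 on Tubastatin A, passed the direct test between them, at a log2 fold change of -2.10. Against the same WT libraries, ADGRL3 changed by -2.15 in 6CD2m (adjusted p = 0.000327, edgeR) and by -0.051 in 6CD1m (adjusted p = 0.927, edgeR). The 6CD2m libraries held 8, 37 and 17 reads of the gene, so the size of the fall is set by few reads.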

How the results depend on the processing

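Of 265 alternative values of the member tests, 237 kept their direction and side of the threshold, 12 lost a call, 7 gained one and 9 changed sign. ADGRL3 in 6CD2m lost its call with the replicate block over all 15 libraries (log2 fold change -2.18, adjusted p = 0.00118 against WT; -2.11, adjusted p = 0.00148 against 6CD1m, edgeR), and against 6CD1m also with only the 6 libraries compared (-2.07, adjusted p = 0.00629). At a minimum of 10 counts in every library ADGRL3 and ADGRL4 were not tested, so 0 members were called in either comparison. Leaving out single libraries gave -2.79 to -1.79 for ADGRL3 against WT and -2.74 to -1.73 against 6CD1m, with member counts from 0 to 1. Against WT the call was lost without 6CD2m replicate 1 (-1.79) or 3 (-2.05) or without WT replicate 1 (-2.04), 2 (-2.11) or 3 (-2.20), and against 6CD1m without 6CD1m replicate 2 (-1.94) or 3 (-1.93) or 6CD2m replicate 1 (-1.73) or 3 (-1.99). All of these had adjusted p values below 0.05, and the cause was not tested.

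Calls were gained by ADGRL2 in 6CD2m against WT at a false discovery rate of 0.05 (-0.76) and with only 6 libraries (-0.74), giving 2 members called, and by ADGRL1 in 8CDm against WT at 0.05 (0.42), with GC offsets (0.76) and with GC offsets and block (0.76), giving 1. With the replicate block in the 6 WT libraries, ADGRL2 (0.73) and ADGRL4 (0.94) passed between the inhibitors, giving 2 members. The pairing check came from the data, not the labels.

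Signs changed in 6CD1m against WT for ADGRL1 with GC offsets (-0.068, and -0.067 with the block) and for ADGRL3 with upper-quartile scaling (0.059), GC offsets (0.11, and 0.089 with the block), without 6CD1m replicate 1 (0.14) and without WT replicate 1 (0.012). The range for ADGRL3 over libraries left out was -0.19 to 0.14. ADGRL2 in 6CD2m against 6CD1m turned without 6CD1m replicate 3 (range -0.45 to 0.16), and ADGRL1 in 6CD2m against WT without WT replicate 3 (range -0.16 to 0.029). The ADGRL4 difference between 6CD2m and WT in mean CPM was -2.98 and turned without WT replicate 1 (range -6.99 to 5.11). Counts over all genes moved with the setting, from 1441 to 6411 in 6CD2m against WT and from 1 to 2013 between the inhibitors. ADGRL3 held 8 to 99 reads per library, the fewest of the members except in 8CDm, where ADGRL4 held 1, 0 and 0.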

Other observations

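The other 28 adhesion receptor genes were set beside the latrophilins, and 18 were tested. In 6CD2m cells ADGRE5, the CD55 receptor also called CD97, rose to 62.4 ± 7.05 CPM from 28.1 ± 1.89 CPM in WT (log2 fold change 1.15, adjusted p = 3.2e-06, edgeR) and from 29.6 ± 3.11 CPM in 6CD1m (1.08, adjusted p = 7.4e-06, edgeR). ADGRG4 measured 4.31 ± 0.534 CPM in 6CD2m and at most 0.140 CPM by mean in the other groups. ADGRG6, a receptor known from Schwann cell myelination, rose in 6CD2m against 6CD1m, 69.7 ± 6.13 against 28.3 ± 9.36 CPM (adjusted p = 0.00054, edgeR). CELSR3 fell in 6CD2m against WT, 37.9 ± 3.35 against 69.7 ± 9.70 CPM (-0.88, adjusted p = 0.00061, edgeR), and so did ADGRV1, 0.457 ± 0.0605 against 2.13 ± 0.527 CPM (-2.20, adjusted p = 0.00054, edgeR).

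In 8CDm cells ADGRF5 rose against WT, 6.88 ± 0.328 against 1.91 ± 0.443 CPM (1.84, adjusted p = 0.00026, edgeR), and ADGRF4 fell, 2.58 ± 0.312 against 6.11 ± 0.868 CPM (-1.24, adjusted p = 0.00059, edgeR). Between the inhibitors in WT cells, ADGRG1 was the only one of the 18 that passed the test (0.420% of all genes), 22.6 ± 1.88 CPM with Tubastatin A against 41.6 ± 2.20 with PCI-34051 (-0.88, adjusted p = 0.00033, edgeR). In 6CD2m against WT 3 rose and 2 fell (11.8% of all genes passed), in 6CD2m against 6CD1m 6 rose and 1 fell (13.2%), in 8CDm against WT 1 rose and 1 fell (11.0%), and in 6CD1m against WT 0 passed (0.793%), with 8 at an unadjusted p below 0.05 and 1 called by DESeq2. Several of these calls lay close to the threshold. Of 16 alternative settings, the calls of CELSR3, ADGRF4 and ADGRG1 were lost in 8 each (adjusted p up to 0.00453, 0.0111 and 0.0251), that of ADGRG6 in 7 and that of ADGRF5 in 6. ADGRV1 lost its call against WT in 9 of 15, including every library left out, and ADGRE5 in none. The count called between the inhibitors ran from 0 to 7 over the alternatives.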
